A study of Rattus norvegicus with 32 samples.

Results

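The genes described here are the translation factors and the splicing and RNA-binding factors that the array carried under 6 families of names. They are all genes whose single symbol in the probe annotation begins with Eif (initiation factors, 22 genes), Eef (elongation factors, 5), Hnrn (heterogeneous nuclear ribonucleoproteins, 11), Snrp (proteins of the small nuclear ribonucleoproteins, 4), Sf3 (splicing factor 3, 2) or Srs (serine/arginine-rich splicing factors, 1). That gives 45 of the 5022 genes with 1 symbol. They were picked by name, and the families were chosen with earlier results of these data known. All 45 had enough values to be tested on the 30 arrays used.

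Male Sprague-Dawley rats of 280 to 300 g were fitted with arterial catheters and a telemetry device, recovered for 7 to 10 days, and had 40% of the estimated blood volume withdrawn. Lungs were collected at 7 times from 1 to 72 h later: 1, 3 and 6 h, called early below, 16 h, and 24, 48 and 72 h, called late (5 arrays at 6 h, 3 at each other time). The 6 sham samples came from rats that carried the instruments and were not bled, and the 3 control samples from untouched rats without instruments. The time at which sham lungs were taken is not clear from the labels. Each array set the RNA of whole lung tissue against a pool of RNA from organs of untreated control animals, so a level below is the log2 ratio of lung over pool, with the median of each array subtracted. Which dye held the lung RNA is not given in the sources used here, and the direction was read from lung genes, which lay above 0. A change is a difference between group means of these ratios. The labels speak of each rat lung without numbering animals, so the p-values measure the spread between these samples, which may be technical in part. In whole tissue, fewer cells of a type and less RNA per cell cannot be told apart.

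On 2 arrays liver genes stood far above the pool. The median of 11 liver markers reached 3.09 in sham replicate 2 and 3.64 in the third replicate of the 16 h group, whereas it was -1.79 to 0.21 on the other 30. The highest of those 30 were 6 h replicate 4 (0.21), 48 h replicate 2 (0.18) and 24 h replicate 1 (0.05), which were kept. Sham replicate 2 and 16 h replicate 3 were left out, which leaves 5 sham arrays and 2 arrays at 16 h. Of the 13056 spots on an array, 12151 to 12895 carried a value, and precision is limited by how few arrays a group has. The markers of surfactant-producing type II cells had a median over 5 measured genes of 7 listed of 0.90 to 3.26 on all 30 arrays. Those of type I cells (4 of 5 genes) had one of 0.48 to 2.12. Because the direction of the ratios was read from lung genes, these values are no separate check of the tissue label. That type II median was 2.22 to 3.26 on the sham arrays, overlapped them at 1, 3, 6, 16 and 24 h (1.71 to 2.50 at 6 h and 1.87 to 2.58 at 24 h), and lay below them at 48 h (1.55 to 1.80) and 72 h (0.90 to 1.29). The median of club cell genes (2 of 3 measured) was 1.14 to 2.24 in sham, 0.35 to 0.92 at 16 h and 0.01 to 0.23 at 72 h. It overlapped sham at 1 h (1.07 to 2.08), 3 h (1.63 to 2.18), 24 h (-0.26 to 1.38) and 48 h (0.11 to 1.68). At 6 h (0.40 to 1.14) it only reached the lowest sham array. The median of neutrophil genes (4 of 7 measured) was 0.03 to 0.65 in sham, 0.57 to 0.85 at 1 h and 1.15 to 1.43 at 3 h. It was 0.36 to 0.95 at 6 h and, within the sham range, 0.17 to 0.36 at 16 h. Later it was 0.61 to 2.79 at 24 h, 0.55 to 0.98 at 48 h and 0.65 to 1.99 at 72 h. That of red cell genes (4 of 6 measured) was -0.96 to -0.60 in sham and -0.04 to 0.21 at 72 h. The 3 h replicate 2 array had the lowest median correlation with the other arrays among the 30 used, at 0.277.

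Translation begins when eIF2 brings the initiator tRNA to the small ribosomal subunit, eIF4F binds the cap of the mRNA and eIF3 holds the complex together. Stress-activated kinases phosphorylate eIF2, which then blocks its own exchange factor eIF2B, and this lowers the rate of protein synthesis in the cell. Elongation factors carry tRNA to the ribosome and move it along the message. Splicing is done by the small nuclear ribonucleoproteins with SF3, while hnRNP and SR proteins coat new transcripts and steer which splice sites are used.

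Few of these genes were called as changed after hemorrhage. Groups held few arrays, so a gene without a call may still have changed. Hnrnpu, a nuclear RNA- and chromatin-binding protein, gave the most calls and was lower than in sham lungs at 24 h (log2 change -1.04 ± 0.26, SE) and at 48 h (-1.14 ± 0.26). Eif2ak3, which encodes the eIF2 kinase PERK of the endoplasmic reticulum, was lower averaged over the 7 times (-0.50 ± 0.14). Eif2b5, the catalytic subunit of eIF2B, was lower at 72 h (-1.01 ± 0.25), and Eif3c, a core subunit of eIF3, was higher early (1, 3 and 6 h) than late (24, 48 and 72 h). Hnrnpa1, an RNA-binding protein of pre-mRNA processing, differed from sham over the times taken jointly. These 5 genes passed an adjusted p of 0.05 (limma, Benjamini-Hochberg over all 5993 genes and unnamed probes tested) in at least 1 of 11 comparisons, and the other 40 passed in none. The share of everything tested that passed in at least 1 comparison was not computed, so this count has no background beside it.

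Few of the 45 genes were called in any comparison, as was true of everything tested. At 1, 3, 6 and 16 h limma called 0 of the 45 genes, where 0%, 2.8% (1.05% higher, 1.75% lower), 0% and 0.0667% (0.0167% higher, 0.0501% lower) of everything tested was called. An unadjusted p under 0.05 was reached by 5, 9, 9 and 7 of the 45 and by 10.8%, 22.4%, 18.7% and 14% of everything tested. At 24 h 1 of 45 was called, in the lower direction (3.55% of everything tested, and 2.7% in that direction), and 8 had an unadjusted p under 0.05 (19.9%). At 48 h it was again 1, lower (1.17%, and 0.868% in that direction), and 5 had an unadjusted p under 0.05 (16.2%). At 72 h 1 was called, lower (5.91%, with 2.04% higher and 3.87% lower). There 12 had an unadjusted p under 0.05, which is 26.7% of the 45 against 22.4% of everything tested. For the mean of the 7 times 1 gene was called, lower (3.42%, and 2.02%). For any time against sham, in a joint test, 3 were called (5.69%), and for early against late 2, higher early (7.04%, and 4.37% in that direction). In these 3 comparisons (mean, joint test, early against late) 10, 11 and 10 of the 45 had an unadjusted p under 0.05 (23%, 31% and 24.7%). All comparisons with sham share the same 5 sham arrays, so their calls are not independent of each other.

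**Figure D1:**
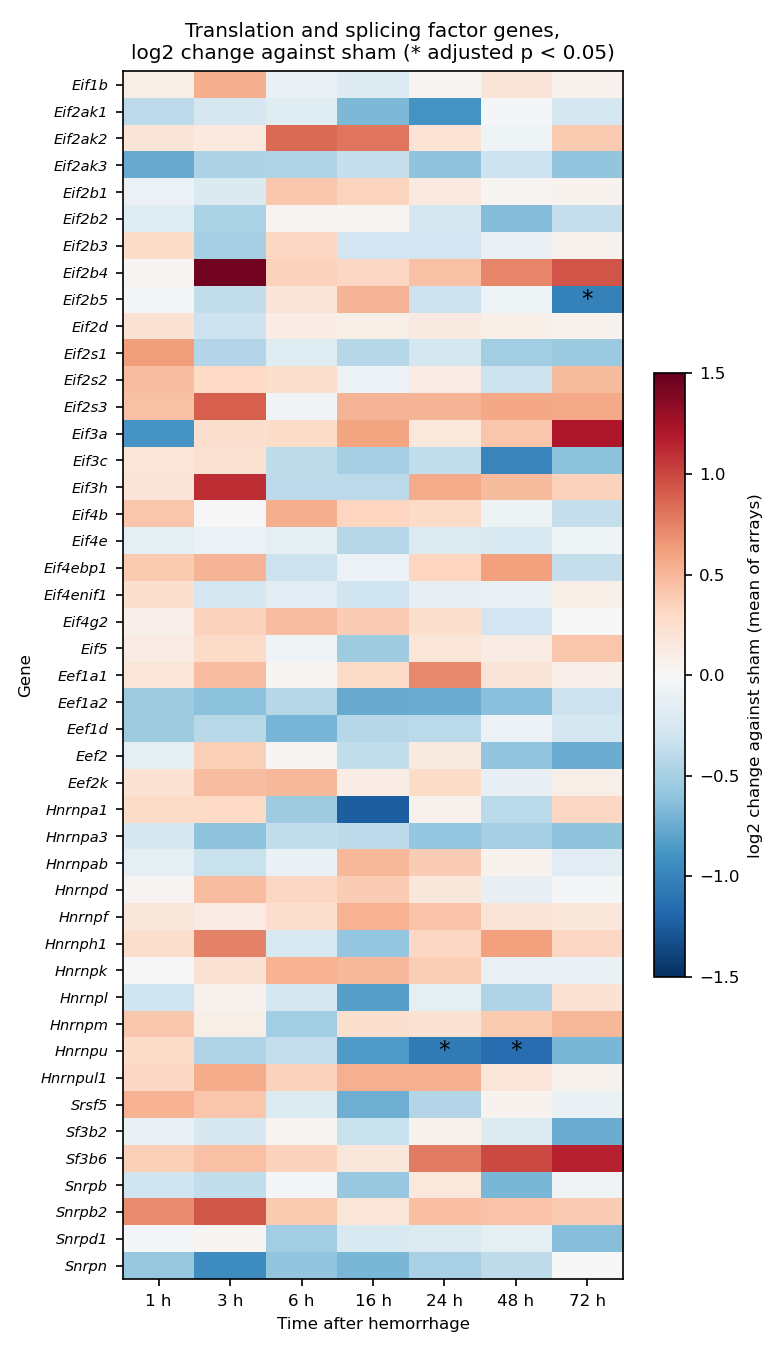
Log2 change against sham of each of the 45 genes (rows) at the 7 times after hemorrhage (columns), with red for higher and blue for lower; the scale ends at 1.5 in each direction and an asterisk marks an adjusted p under 0.05. The 3 asterisks are Hnrnpu at 24 and 48 h and Eif2b5 at 72 h, and between 18 and 28 of the 45 rows lie above 0 in each column.

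Single arrays decided several of these counts. At 3 h, 4 genes were called without 3 h replicate 3 (Eef1a2, Hnrnpul1, Snrpb2 and Snrpn), 1 without sham replicate 4 (Eif3h) and 1 without 3 h replicate 2 (Eef1a1). At 6 h, 1 gene (Eif2ak2) was called without 6 h replicate 1. At 72 h the count was 4 without 72 h replicate 1 (Eif2ak3, Eif2b5, Sf3b6 and Snrpd1), 2 without sham replicate 1 or sham replicate 6, and 0 without 72 h replicate 2 or 72 h replicate 3. The joint test called 7 without 3 h replicate 2 and 5 without 1 h replicate 1, and 1 without 16 h replicate 1 or 16 h replicate 2. Without sham replicate 3, 24 h replicate 2 or 24 h replicate 3 the 24 h count was 0. For the mean of the 7 times it was 3 without 3 h replicate 3, 2 without 1 h replicate 1 or 24 h replicate 1, and 0 in 19 of 27 omissions. At 48 h it was 0 in 7 of 8 omissions, all but that of sham replicate 4. Early against late, 4 genes were called without 1 h replicate 1, 3 h replicate 1 or 24 h replicate 1, and 1 without 24 h replicate 3.

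The calls were also run with the 2 arrays of high liver signal kept. With all 32 arrays Hnrnpu was at -0.97 at 24 h (adjusted p = 0.0723) and -1.07 at 48 h (adjusted p = 0.0868), and it passed at 16 h (-1.18, adjusted p = 0.0437), as did Hnrnpf (0.69, adjusted p = 0.0437). Eif2b5 was at -0.89 at 72 h (adjusted p = 0.0587) and Eif2ak3 at -0.43 over the 7 times (adjusted p = 0.109). In the joint test Hnrnpu passed, while Eif2b5 and Hnrnpa1 had an adjusted p of 0.0798. The early against late calls of Hnrnpu and Eif3c were kept, at 0.78 and 0.67.

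The median change of the 45 genes was small at every time. It was 0.13 at 1 h and 0.13 at 3 h, -0.05 at 6 h, -0.19 at 16 h, 0.14 at 24 h (-0.043 without centring, where the median of everything tested was -0.15), -0.09 at 48 h and 0.00067 at 72 h. The same medians over everything tested were -0.01, 0.01, 0.02, 0.04, 0.04, 0.0046 and 0.02. The array medians of the 45 genes scattered within a group by an SD of 0.11. Of the 45 genes, 27, 26, 21, 20, 28, 18 and 23 lay above 0 at 1, 3, 6, 16, 24, 48 and 72 h. The median size of a change, whatever its sign, was 0.257 for the 45 genes and 0.291 for everything tested at 1 h, 0.285 and 0.325 at 48 h, and 0.393 and 0.364 at 16 h, the only time at which it was greater for the 45. The 3 h median went to 0.012 without 3 h replicate 1, and the 16 h median to -0.074 without sham replicate 4.

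**Figure D2:**
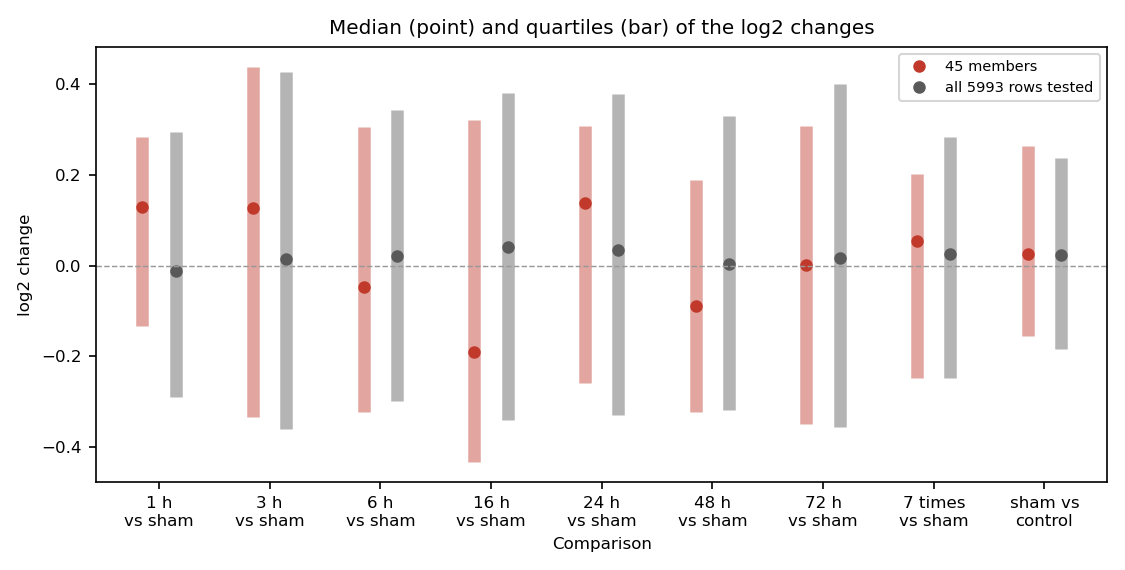
Median (point) and quartiles (bar) of the log2 change of the 45 genes (red) and of all 5993 genes and unnamed probes tested (grey), for each time against sham, for the mean of the 7 times and for sham against control. The bars of both sets straddle 0 in every comparison, and the lowest median of the 45 genes is -0.19 at 16 h.

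The regulatory machinery around eIF2 was nearly complete on the array, with 11 of 12 listed genes measured. limma called 1 of these at 72 h (Eif2b5) and 1 in the mean of the 7 times (Eif2ak3), both lower. Of everything tested 5.91% was called at 72 h, and 3.87% lower. For the mean it was 3.42%, and 2.02% lower. At the other 6 times it called 0 of these genes, where 0% to 3.55% of everything tested was called. An unadjusted p under 0.05 was reached by 2, 3, 3, 1, 2, 2 and 4 of them at 1, 3, 6, 16, 24, 48 and 72 h. Of everything tested 10.8% to 22.4% reached it at these times. The kinases Eif2ak3, Eif2ak2 and Eif2ak1 had different courses.

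The promoters of Eif2ak3 and Eif2ak2 are given because Eif2ak3 gave a call and the changes of Eif2ak2 at 6 and 16 h had the opposite sign, though no change of either passed at those 2 times. Each is the 250 bases before the annotated transcription start in RefSeq for the rat build GRCr8, written 5′ to 3′ on the strand of the gene. Eif2ak3 lies at chr4:104363622-104363871 on the plus strand and Eif2ak2 at chr6:21940904-21941153 on the plus strand. Capitals mark exact matches on either strand to 8 motifs: the GC box GGGCGG, the CCAAT box, the TATA box TATAAA, the E-box CACGTG, the ETS motif CCGGAAG, the cyclic AMP response element TGACGTCA, the YY1 motif AAGATGG and the interferon response motif (GAAA, any 2 bases, GAAA).
Eif2ak3: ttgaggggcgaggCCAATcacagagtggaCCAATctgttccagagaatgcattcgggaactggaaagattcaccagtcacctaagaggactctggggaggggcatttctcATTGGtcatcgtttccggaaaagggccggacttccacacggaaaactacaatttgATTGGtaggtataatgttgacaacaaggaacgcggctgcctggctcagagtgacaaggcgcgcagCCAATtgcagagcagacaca
Eif2ak2: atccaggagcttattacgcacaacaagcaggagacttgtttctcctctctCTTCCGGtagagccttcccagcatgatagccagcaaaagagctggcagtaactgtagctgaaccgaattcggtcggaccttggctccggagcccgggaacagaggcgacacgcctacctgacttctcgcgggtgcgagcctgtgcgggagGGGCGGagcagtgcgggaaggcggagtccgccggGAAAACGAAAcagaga
The Eif2ak3 stretch holds 5 CCAAT boxes, which begin 237, 221, 140, 85 and 20 bases before the start. The Eif2ak2 stretch holds an ETS motif 200, a GC box 50 and an interferon response motif 16 bases before it. The stretches of the called genes Eif2b5 and Eif3c are not printed. That of Eif2b5 held no match to the 8 motifs, and that of Eif3c held a YY1 motif and a GC box. A match to letters is a description and not a binding site. In windows of 300 bases (50 after the start included), a CCAAT box occurs in 37.5% and the interferon response motif in 3.92% of all 33469 promoters in that table.

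Eif2ak3 stood at 0.82, 0.55, 0.49, 0.64 and 0.66 on sham replicates 1, 3, 4, 5 and 6. It stood at 0.12, -0.66 and 0.16 at 1 h, at 0.04, 0.03 and 0.44 at 3 h, and at 0.16, 0.39, 0.31, -0.13 and 0.20 at 6 h. Later values were 0.25 and 0.32 at 16 h, 0.38, -0.14 and -0.16 at 24 h, 0.32, 0.30 and 0.33 at 48 h, and 0.38, -0.06 and -0.18 at 72 h. Every array taken after hemorrhage was below the lowest sham array, whereas the control arrays, at 0.87, 0.87 and 0.33, overlapped both. The mean over the 7 times fell by 0.50 ± 0.14 on the log2 scale (adjusted p = 0.0477). At single times the change ran from -0.32 ± 0.21 at 48 h to -0.76 ± 0.21 at 1 h, and none passed (adjusted p = 0.0919 to 0.514). The call of the mean was close to the threshold: of 27 omissions of 1 array it held in 6, which were those of 1 h replicates 1, 2 and 3, 3 h replicate 3, 24 h replicate 1 and 72 h replicate 1. Each of the other 21 omissions ended it, with a change of -0.54 to -0.46 and an adjusted p of 0.0505 to 0.147, the highest without sham replicate 1.

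Eif2ak2 encodes PKR, the kinase that responds to double-stranded RNA and is induced by interferon. On the sham arrays it stood at 0.20, 0.64, -0.38, 0.43 and -0.17. At 6 h it stood at 0.17, 1.27, 1.22, 1.44 and 0.85 and at 16 h at 1.09 and 0.80. At 6 h 4 of the 5 arrays were above every sham array and replicate 1 lay inside the sham range, and at 16 h both arrays were above. The change was 0.84 ± 0.27 at 6 h (adjusted p = 0.12) and 0.80 ± 0.35 at 16 h (adjusted p = 0.313), neither of which passed. Without 6 h replicate 1 the 6 h change was 1.05 and passed (adjusted p = 0.0404). At 24, 48 and 72 h it was 0.20, -0.07 and 0.40.

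Eif2ak1, the heme-regulated kinase that is best known from red cell precursors, stood at 0.05, 0.23, -0.32, 0.14 and -0.77 in sham and at -1.13, -0.76 and -1.21 at 24 h. The 24 h arrays overlapped the sham arrays only at sham replicate 6. Its 24 h change of -0.90 ± 0.30 did not pass (adjusted p = 0.0916). The red cell genes lay higher at that time, with medians of -0.56 to -0.08 at 24 h against -0.96 to -0.60 in sham; their part in the value of Eif2ak1 was not tested. Sham lungs were also below control lungs for Eif2ak1 (difference -0.54 ± 0.30, adjusted p = 0.999), with no overlap between the groups.

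**Figure D3:**
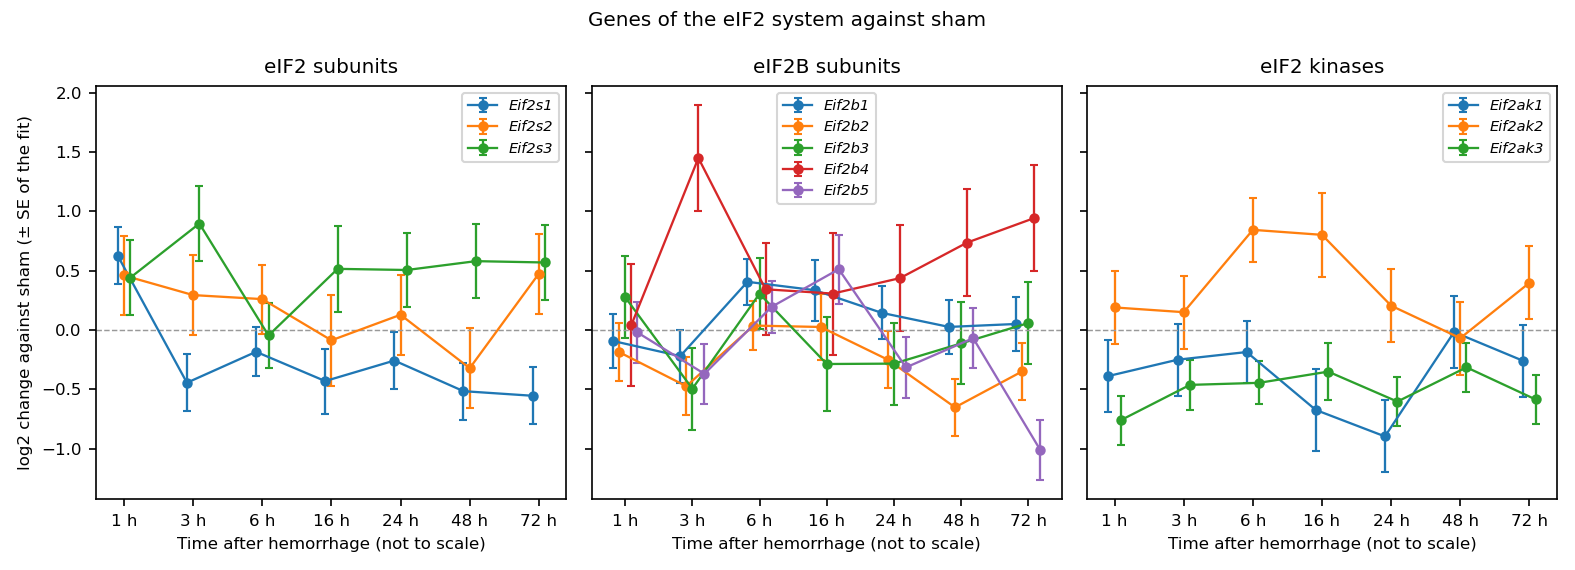
Log2 change against sham with the SE of the fit for the subunits of eIF2 (left), the subunits of its exchange factor eIF2B (middle) and 3 eIF2 kinases (right) at the 7 times, which are evenly spaced and not to scale. Eif2ak3 is below 0 at all 7 times, Eif2ak2 is highest at 6 and 16 h, and Eif2b5 is lowest at 72 h while Eif2b4 is above 0 at every time.

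The 3 subunits of eIF2 itself had different courses. Eif2s1, the alpha subunit that the kinases phosphorylate, had its highest group mean at 1 h (0.26) and its lowest at 72 h (-0.92). Its early minus late difference was 0.44 ± 0.15 (adjusted p = 0.0702), and it did not pass against sham at any time (-0.56 ± 0.24 at 72 h, adjusted p = 0.169). It lay below every sham array at 3, 16 and 48 h. Eif2s3, the gamma subunit that binds GTP and the tRNA, lay above every sham array at 1, 3 and 16 h. The values of Eif2s3 were 0.75, 1.11 and 0.91 at 3 h against -0.18 to 0.29 in sham, a change of 0.90 ± 0.31 that did not pass (adjusted p = 0.105). Eif2s2, the beta subunit, had changes between -0.32 at 48 h and 0.47 at 72 h, with no unadjusted p under 0.05.

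Of the 5 subunits of eIF2B, Eif2b5 (epsilon) carries the exchange activity. It stood at 1.31, 1.48, 1.52, 1.38 and 1.72 on the sham arrays and at 1.05, 1.18 and 1.27 on the control arrays. At 72 h it stood at 0.94, 0.51 and -0.04, and at 16 h at 1.90 and 2.08. The 72 h arrays were all below and the 16 h arrays all above every sham array. The 72 h change of -1.01 ± 0.25 passed (adjusted p = 0.022), as did the joint test over the times (adjusted p = 0.0388). Without 72 h replicate 3, the array at -0.04, the 72 h change was -0.76 (adjusted p = 0.204), and without 72 h replicate 2 it was -1.03 (adjusted p = 0.0881). The joint test held in 16 of 27 omissions. It was lost, at an adjusted p of 0.0506 to 0.126, without sham replicates 3, 5 or 6, 1 h replicate 3, 6 h replicates 2 or 4, 16 h replicates 1 or 2, 48 h replicate 1, and 72 h replicates 2 or 3, the last of which gave the highest. The type II cell median was lowest at 72 h too, and its part in the value of Eif2b5 was not tested.

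The other subunits of eIF2B gave no call. Eif2b4 (delta) had the lowest mean log2 ratio of the initiation factors, -1.81, and 1 array had no value for it (1 h replicate 2), so its fit used 29 arrays. It stood at -1.36, -2.15, -2.19, -2.68 and -3.41 in sham and at -1.68, -0.23 and -0.82 at 3 h. Only 3 h replicate 1 lay inside the sham range, and the 3 h change of 1.45 ± 0.45 did not pass (adjusted p = 0.0695). Eif2b2 (beta) was at -0.65 ± 0.24 at 48 h (adjusted p = 0.183). Eif2b1 (alpha) and Eif2b3 (gamma) stayed between -0.50 and 0.41 at all times.

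No gene of cap binding gave a call. Eif4e, which encodes the cap-binding protein, had the smallest range of group means of all 45 genes, from 0.11 at 16 h to 0.55 in sham, and a within-group SD of 0.23. Its changes lay between -0.43 ± 0.22 at 16 h and -0.06 ± 0.20 at 72 h. Eif4ebp1, the repressor that sequesters eIF4E, varied more between replicates, with a within-group SD of 0.56, and stood at -0.74 to -0.15 in sham and -1.96 to 0.01 at 72 h. Of the 4 genes of this list that were measured (9 were listed) limma called 0 at each of the 7 times, where 0% to 5.91% of everything tested was called. Only Eif4b at 6 h (0.54 ± 0.23), the RNA-binding partner of the eIF4A helicase, had an unadjusted p under 0.05 at these times. Of everything tested 18.7% reached it at 6 h. Eif4g2, a scaffold relative of eIF4G used in cap-independent initiation, was at 0.46 ± 0.23 at 6 h (adjusted p = 0.286), and its 2 probes correlated at 0.59 over the 30 arrays. Eif4enif1, which carries eIF4E into the nucleus, and the initiation factors Eif1b and Eif2d had no unadjusted p under 0.05 in any comparison, with changes against sham between -0.31 (Eif2d at 3 h) and 0.55 (Eif1b at 3 h).

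The eIF3 genes had different courses. Eif3c stood at 0.04, 0.46, 0.40, 0.17 and 0.20 in sham. It stood at 0.06, 0.61 and 0.65 at 1 h, at 0.44, 0.03 and 0.99 at 3 h, and at -0.27, -0.72, 0.22, -0.15 and 0.26 at 6 h. At 16 h it stood at -0.30 and -0.18, at 24 h at 0.58, -0.28 and -0.64, at 48 h at -0.17, -1.25 and -0.80, and at 72 h at -0.38, -0.28 and -0.43. The 16, 48 and 72 h arrays were all below every sham array, the 1, 3 and 6 h arrays overlapped sham, and the 24 h arrays reached from above the sham range to below it. The early mean was 0.67 ± 0.17 above the late mean (adjusted p = 0.023), and this held in 19 of 20 omissions of 1 array (0.58, adjusted p = 0.0597, without 24 h replicate 3). Against sham no single time passed, the nearest being 48 h (-0.99 ± 0.28, adjusted p = 0.0722).

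Eif3a, the scaffold subunit of eIF3, had the widest range of group means of all 45 genes, from -2.32 at 1 h to -0.22 at 72 h. Control replicate 1 had no value for it, so its fit used 29 arrays. It stood at -2.16, -1.51, -1.70, -1.02 and -0.81 in sham, at -1.44, -2.22 and -3.31 at 1 h and at -0.57, -0.29 and 0.19 at 72 h. Only the 72 h arrays were clear of sham, on the high side. The change of 1.22 ± 0.39 at 72 h did not pass (adjusted p = 0.0619), nor did the early minus late difference of -0.71 ± 0.24 (adjusted p = 0.073), which had the opposite sign to that of Eif3c. Eif3h, a regulatory subunit, was at 1.11 ± 0.40 at 3 h (adjusted p = 0.109), and Eif5, the GTPase activator of start site selection, stayed between -0.53 at 16 h and 0.42 at 72 h.

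limma called 0 of the 5 elongation genes at each of the 7 times, where 0% to 5.91% of everything tested was called. An unadjusted p under 0.05 was reached by 1, 1, 2, 1, 2, 0 and 1 of them at 1, 3, 6, 16, 24, 48 and 72 h. Of everything tested 10.8% to 22.4% reached it at these times. Eef1a1, the tRNA carrier of most tissues, had the highest mean log2 ratio of this family, 1.31, and stood at 1.95, 1.46 and 2.20 at 24 h against 0.96 to 1.36 in sham, with no overlap. Its 24 h change was 0.72 ± 0.30 (adjusted p = 0.176). Eef1a2, the carrier of muscle and neurons, lay on the other side, at -0.58 ± 0.21 over the 7 times (adjusted p = 0.109). Eef1d, a subunit of the exchange factor for that carrier, had the lowest mean log2 ratio of the family, -0.85. It lay below every sham array at 1, 3, 6 and 16 h, with a 6 h change of -0.69 ± 0.22 (adjusted p = 0.124). Its control arrays, at -1.35, -0.51 and -0.68, reached below the sham range too. Eef2, the translocation factor, lay below every sham array at 16, 48 and 72 h (-0.75 ± 0.31 at 72 h, adjusted p = 0.158). The control arrays of Eef2, at 0.84, 0.77 and 0.13, also reached below the sham range. Eef2k, the kinase that inhibits Eef2, was highest at 6 h (0.49 ± 0.19, adjusted p = 0.187).

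Of the 11 hnRNP genes 2 gave a call, both of them in the joint test over the times (5.69% of everything tested). Their promoters are shown because these 2 genes carry the calls of the family. Hnrnpu lies at chr13:92618581-92618830 on the minus strand and Hnrnpa1 at chr7:136253868-136254117 on the plus strand, and the source, orientation and capitals are as for the kinases above.
Hnrnpu: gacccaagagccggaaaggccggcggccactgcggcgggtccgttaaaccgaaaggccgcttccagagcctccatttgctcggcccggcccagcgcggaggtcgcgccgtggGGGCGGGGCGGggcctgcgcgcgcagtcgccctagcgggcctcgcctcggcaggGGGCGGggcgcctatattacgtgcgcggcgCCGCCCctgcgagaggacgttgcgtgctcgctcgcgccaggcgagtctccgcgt
Hnrnpa1: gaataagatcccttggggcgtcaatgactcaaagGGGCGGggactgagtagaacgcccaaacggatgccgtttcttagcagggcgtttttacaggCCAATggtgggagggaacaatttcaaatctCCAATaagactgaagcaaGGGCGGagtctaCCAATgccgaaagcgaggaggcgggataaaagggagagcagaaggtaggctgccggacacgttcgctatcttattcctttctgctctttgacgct
The Hnrnpu stretch has 75.2% G and C and holds 4 GC boxes, which begin 138, 133, 84 and 54 bases before the start, while that of Hnrnpa1 has 52% and holds 2 GC boxes and 3 CCAAT boxes. Of the 45 genes 39 had a promoter in the RefSeq table. Of those 39 windows of 300 bases, 74.4% held a GC box, against 55.4% for the 4079 genes of the array with a promoter and 33.1% for all promoters. The ETS motif was in 33.3% of the 39 windows, 11.5% of those of genes on the array and 8.75% of all. The E-box was in 20.5%, 7.87% and 6.42%, and the TATA box in 12.8%, 11.8% and 14.2%. The CCAAT box was in 43.6%, 38% and 37.5%, and the YY1 motif in 7.69%, 7.04% and 7.01%. For the cyclic AMP response element it was 2.56%, 2.33% and 1.83%, and for the interferon response motif 5.13%, 3.19% and 3.92%. These shares describe the windows and were not tested.

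Hnrnpu stood at 0.65, 1.12, 0.51, 0.78 and 0.62 on sham replicates 1, 3, 4, 5 and 6, at 0.85, 0.79 and 1.01 on the control arrays and at 1.17, 0.81 and 1.07 at 1 h. It stood at 0.27, -0.21 and 0.80 at 3 h and at -0.17, 0.68, 1.02, 0.43 and -0.06 at 6 h. Later it stood at 0.08 and -0.31 at 16 h, 0.05, -0.49 and -0.49 at 24 h, -0.01, -0.70 and -0.51 at 48 h, and -0.05, 0.03 and 0.19 at 72 h. From 16 h on every array was below every sham array, at 3 and 6 h the arrays were spread from within the sham range to far below it, and at 1 h they overlapped sham.

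The change of Hnrnpu was 0.28 ± 0.26 at 1 h, -0.45 ± 0.26 at 3 h and -0.35 ± 0.22 at 6 h. It was -0.85 ± 0.29 at 16 h (adjusted p = 0.211), -1.04 ± 0.26 at 24 h (adjusted p = 0.0248), -1.14 ± 0.26 at 48 h (adjusted p = 0.0408) and -0.68 ± 0.26 at 72 h (adjusted p = 0.115). The joint test over the times passed (adjusted p = 0.0163), in all of 27 omissions of 1 array as well. The early mean was 0.78 ± 0.16 above the late mean (adjusted p = 0.00637), which passed in all of 20 omissions with differences of 0.70 to 0.86. The mean of the 7 times missed the threshold (-0.60 ± 0.18, adjusted p = 0.0523).

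The calls of Hnrnpu at single times rested on few arrays. At 24 h the change was -0.95 in each of 3 omissions that ended the call: sham replicate 3 (adjusted p = 0.0643), 24 h replicate 2 (0.0659) and 24 h replicate 3 (0.139). At 48 h only the omission of sham replicate 4 kept it. The others gave changes of -1.34 to -0.99 with an adjusted p from 0.0504 (without 48 h replicate 1) to 0.135 (without 48 h replicate 2). Those between were sham replicates 1, 3, 5 and 6 (0.0731, 0.0839, 0.064 and 0.0616) and 48 h replicate 3 (0.102). The median of the type II cell genes was also lower than in sham at 48 and 72 h. That of the red cell genes was higher from 16 h on, and the neutrophil median reached 2.79 at 24 h. The liver median was highest at 48 h in replicate 2 (0.18, against -1.43 and -1.79), where Hnrnpu was lowest for that time. At 24 h it was highest in replicate 1 (0.05), where Hnrnpu was highest for that time. The part of these cell and tissue signals in the values of Hnrnpu was not tested.

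**Figure D4:**
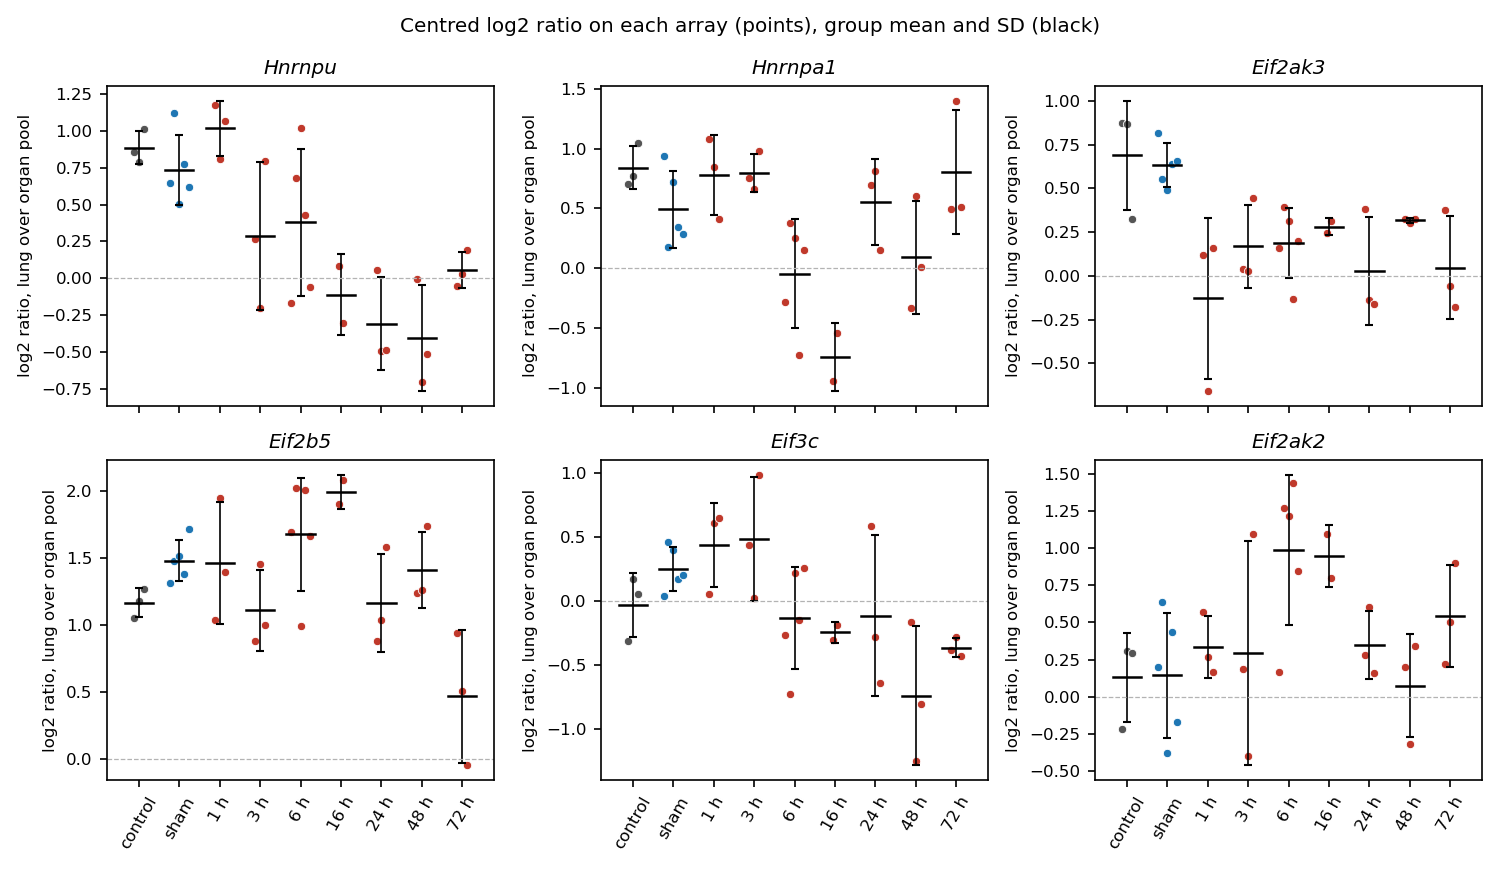
Centred log2 ratio of lung over organ pool on each array (points; grey control, blue sham, red hemorrhage) for 6 genes, with the group mean and SD in black; each panel has its own vertical scale. Hnrnpu is below all sham arrays from 16 h on, Eif2ak3 at every time after hemorrhage, Eif2b5 at 72 h, Eif3c at 16, 48 and 72 h, and Hnrnpa1 at 16 h, where 2 arrays were used.

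Hnrnpa1 stood at 0.94, 0.18, 0.72, 0.34 and 0.29 in sham. It stood at 1.08, 0.84 and 0.41 at 1 h, 0.75, 0.66 and 0.98 at 3 h and -0.29, 0.37, 0.26, -0.72 and 0.15 at 6 h. It was lowest at 16 h, at -0.94 and -0.54, and stood at 0.70, 0.82 and 0.15 at 24 h, -0.34, 0.60 and 0.01 at 48 h and 0.49, 1.40 and 0.51 at 72 h. Both 16 h arrays were below all sham arrays, the 6 h arrays reached from below sham into its range, and the 1, 3 and 24 h arrays lay around it. The joint test passed (adjusted p = 0.0287), without 16 h replicate 1 at 0.0943 and without 16 h replicate 2 at 0.0515, and in the other 25 omissions. The 16 h change of -1.23 ± 0.32 did not pass (adjusted p = 0.13).

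The other 9 hnRNP genes, with the probes of a gene averaged, passed in no comparison. Hnrnpa3, a relative of Hnrnpa1, was at -0.47 ± 0.17 over the 7 times (adjusted p = 0.104) and at -0.08, 0.11 and 0.07 at 3 h, below the sham range of 0.26 to 0.97. Hnrnpf, a splicing regulator that binds G-rich sequence, had the highest mean log2 ratio of the family, 0.67, and the smallest within-group SD of all 45 genes, 0.16. It stood at 1.02 and 1.01 at 16 h and at 0.90, 0.87 and 1.00 at 24 h, above the sham range of 0.29 to 0.73, with changes of 0.52 ± 0.19 (adjusted p = 0.222) and 0.43 ± 0.16 (adjusted p = 0.134). The 2 probes of Hnrnpf correlated at only 0.04 over the arrays. Tested apart, 1 was at 0.83 at 24 h and passed (adjusted p = 0.0181), and the other at 0.03 did not (adjusted p = 0.954). Hnrnpm, a splicing regulator, had the lowest mean log2 ratio of the family, -1.01, and lay above every sham array at 72 h (0.50 ± 0.32, adjusted p = 0.375). Hnrnph1, Hnrnpk, Hnrnpl, Hnrnpd, Hnrnpab and Hnrnpul1 had changes between -0.83 (Hnrnpl at 16 h) and 0.74 (Hnrnph1 at 3 h).

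limma called 0 of the 7 genes of the spliceosome core and the SR family at each of the 7 times, where 0% to 5.91% of everything tested was called. An unadjusted p under 0.05 was reached by 1, 2, 2, 1, 1, 1 and 3 of them at 1, 3, 6, 16, 24, 48 and 72 h. Of everything tested 10.8% to 22.4% reached it at these times. Sf3b2 is a subunit of the SF3b complex that binds near the branch site. It stood at 1.13, 0.74, 0.45, 0.30 and 0.37 in sham and at -0.18, -0.18 and -0.08 at 72 h, with no overlap. On the control arrays Sf3b2 stood at 0.05, -0.01 and -0.09, also below every sham array. Its 72 h change of -0.74 ± 0.23 missed the threshold (adjusted p = 0.0505). Its 2 probes disagreed, since they correlated at -0.35 over the arrays and had mean levels of -0.11 and 0.90, and the gene's value is their mean. Tested apart, 1 probe was at -1.47 at 72 h and passed (adjusted p = 0.0347), and the other at -0.014 did not (adjusted p = 0.988). Sf3b6, a small subunit of the same complex, lay on the other side, at -0.51, 0.52 and 0.33 at 72 h against -1.67 to -0.62 in sham, and its change of 1.15 ± 0.36 did not pass (adjusted p = 0.0574). Without 72 h replicate 1 the change of Sf3b6 was 1.46 and passed (adjusted p = 0.0284).

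Of the Sm and U2 proteins, Snrpd1, a member of the Sm ring, was at -0.64 ± 0.20 at 72 h (adjusted p = 0.0585). Without 72 h replicate 3 it was at -0.39, and it passed without sham replicate 1 (-0.73, adjusted p = 0.0451) and without 72 h replicate 1 (-0.84, adjusted p = 0.0236). Snrpn, an Sm protein known from an imprinted locus, stood at -2.43, -0.78 and -0.33 at 3 h. It stood at -0.49 to 0.24 in sham and at -1.10, -0.11 and -0.57 on the control arrays. The 3 h change of -0.93 ± 0.32 (adjusted p = 0.0978) went to -0.31 without 3 h replicate 1 and to -1.36 without 3 h replicate 3, where it passed (adjusted p = 0.0194). Snrpb2, a protein of the U2 particle, was at 0.94 ± 0.33 at 3 h (adjusted p = 0.107), and at 1.32 (adjusted p = 0.0272) without 3 h replicate 3. Snrpb, another protein of the Sm ring, was 0.76 ± 0.38 apart between sham and control (adjusted p = 0.999), with sham the higher, and its changes against sham lay between -0.69 at 48 h and 0.15 at 24 h. Srsf5, the only SR gene, had its highest group mean at 1 h (0.38) and its lowest at 16 h (-0.86).

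Most of these genes had a ratio of lung over pool somewhat above the median of the array. On this centred scale 0 is that median and not equality with the pool. Over the 30 arrays 28 of the 45 (62.2%) had a mean log2 ratio above 0, against 49.1% of everything tested, and the median of these means was 0.27 against -0.01. By family, 14 of 22 initiation factors, 3 of 5 elongation factors, 8 of 11 hnRNP genes, 1 of 2 SF3 genes, 2 of 4 snRNP genes and 0 of 1 SR genes lay above 0. Eif2b5 had the highest mean ratio of the initiation factors (1.34). Between replicates the genes were slightly quieter than the rest, with a median within-group SD of 0.388 against 0.441. The 2 spots of a probe correlated over the arrays at 0.487 to 0.969 (median 0.876).

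The shares of genes whose arrays did not overlap with sham were also compared with everything tested. Wholly below sham lay 4 genes at 1 h (8.89%, against 3.17% of everything tested), 4 at 3 h (8.89%, against 5.02%), 3 at 6 h (6.67%, against 3.04%) and 10 at 16 h (22.2%, against 11.5%), where only 2 arrays enter. Later it was 3 at 24 h (6.67%, against 6.57%), 7 at 48 h (15.6%, against 8.09%) and 6 at 72 h (13.3%, against 9.19%), so the share was above that of everything tested at each time, by little at 24 h. Wholly above sham lay 1, 1 and 0 genes at 1, 3 and 6 h (2.22%, 2.22% and 0%, against 3.64%, 5.72% and 3.15%) and 7 at 16 h (15.6%, against 12.1%). At 24, 48 and 72 h it was 2, 1 and 3 (4.44%, 2.22% and 6.67%, against 4.89%, 5.57% and 9.38%), so this share was below that of everything tested at each time but 16 h. The differences between these shares were not tested, and the 7 times share the same sham arrays. Eif2ak3 was among the lower genes at all 7 times, Snrpn at 1, 6, 16 and 24 h, and Hnrnpu from 16 h on. Control arrays did not enter these counts, and those of Snrpn, Eef1d and Eef2 also reached below the sham range.

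Instrumentation alone was examined with sham against control. limma called 0 of the 45 genes (0% of everything tested), with 2 at an unadjusted p under 0.05 (4.71%), and their median difference was 0.02, the same as over everything tested. Eif2b5, Sf3b2 and Snrpb lay wholly above control in sham lungs, and Eif2ak1 and Eif2d wholly below (6.67% and 4.44% of the 45, against 1.52% and 1.65% of everything tested). Sf3b2 had the smallest p, with a difference of 0.61 ± 0.23 (adjusted p = 0.953), and Eif2b4 the widest gap, -0.96 ± 0.45 (adjusted p = 0.999). Tested apart, the 2 probes of Sf3b2 differed by 0.35 and 0.88 between sham and control, and neither passed.

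Other genes of the same pathways were taken from lists that were chosen with earlier results of these data known. Of 18 measured genes of translation outside the families (64 were listed), 1 passed at 3 h (2.8% of everything tested). It was Rack1, a scaffold protein of the small ribosomal subunit, which rose by 1.54 ± 0.35 (adjusted p = 0.0235). Rack1 stood at 2.48, 1.50 and 2.32 at 3 h against 0.09 to 1.50 in sham, and 3 h replicate 2 was level with the highest sham array. Tpt1, a translationally controlled protein, was 0.86 ± 0.26 higher early than late (adjusted p = 0.0452). In that comparison 7.04% of everything tested passed, and 4.37% in that direction. At the other times 0 of the 18 passed, where 0% to 5.91% of everything tested did. An unadjusted p under 0.05 was reached by 1, 3, 4, 5, 3 and 2 of them at 1, 6, 16, 24, 48 and 72 h. Over everything tested that share was 10.8%, 18.7%, 14%, 19.9%, 16.2% and 22.4%. The list's median change ran from -0.37 at 24 h to -0.05 at 3 h.

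Of 33 measured splicing and RNA-binding genes outside the families (109 were listed), 1 passed at 24 h, 1 at 48 h and 3 at 72 h (3.55%, 1.17% and 5.91% of everything tested). At 1, 3, 6 and 16 h 0 passed, where 0%, 2.8%, 0% and 0.0667% of everything tested did. An unadjusted p under 0.05 was reached there by 4, 5, 5 and 3 of the 33. Of everything tested 10.8%, 22.4%, 18.7% and 14% reached it. Ddx39b, the helicase that helps the U2 particle onto the branch site, fell at 24 h (-1.66 ± 0.31, adjusted p = 0.00516), 48 h (-1.54 ± 0.31, adjusted p = 0.0231) and 72 h (-1.83 ± 0.31, adjusted p = 0.00164). Ddx39b stood at -0.47 to 0.32 in sham and at -2.34 to -1.09 at 24 h, with no overlap. At 72 h Cirbp, the cold-inducible RNA-binding protein, fell by 0.97 ± 0.29 (adjusted p = 0.0444) and Srpk2, a kinase of SR proteins, rose by 0.93 ± 0.23 (adjusted p = 0.022).

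The 51 ribosomal protein genes of the array, taken as the nearest other set of the translation machinery, had a median change of 0.59 at 1 h and 0.94 at 3 h, with 45 and 46 of 51 above 0, where the 45 factors stood at 0.13 and 0.13. At 6 and 16 h the ribosomal medians were -0.03 and -0.11, at 24 h 0.50, at 48 h 0.13 and at 72 h -0.29. limma called 4 of the 51 at 3 h, all higher (2.8% of everything tested in either direction, and 1.05% higher). It called 4 at 72 h, of which 3 were lower (5.91%, with 2.04% higher and 3.87% lower). At 24 and 48 h it called 1 each time, Rpl36, which fell by 1.26 and 1.42 (adjusted p = 0.0266 and 0.0408) against the sign of the median. At those 2 times 2.7% and 0.868% of everything tested was called lower. The difference between the 2 sets was not tested.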

How the data were processed

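Lung RNA was set against an organ pool on 2-colour spotted arrays, 1 per lung sample. The authors deposited log2 ratios, which are logs of linear ratios in steps of 0.01; how they were scanned and normalized is not given in the sources used here. Gene names came from the platform's probe annotation. The median of each array was subtracted, spots of a gene were averaged, and 1 limma 3.58.1 model (R 4.3.3) was fitted to group means on 30 of 32 arrays, with at least 2 arrays in every group required. P-values were two-sided and Benjamini-Hochberg adjusted over all 5993 rows tested, and calls needed an adjusted p under 0.05. The procedure was also run on simulated data with changes placed at 24 h only and independent noise of the same SD for a gene on every array. That run does not show how well it works on these arrays. Arrays were grouped by the labels, and a group of 2 to 5 arrays sets the precision.

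Named genes are those called or with the 4 smallest p in a comparison, those with the extreme ratios or widest range in each family, and listed genes of each role. Members and lists were chosen with earlier results of these data known. Alternatives were no centring, quantile normalization, near-floor ratios set missing, no filter on missing values, probes kept apart, array weights, all 32 arrays, a replicate block and omission of each array in turn. Promoters came from RefSeq, build GRCr8.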

Additional observations from a re-analysis of the deposited data

Results flagged for a closer look

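Eef2 stood apart in sham replicate 4, at 1.55 against 0.74 to 0.96 on the other sham arrays. Eif4g2 was low in sham replicate 5, at 0.49 against 0.79 to 0.90. These were 2 of 82 groups of 4 or 5 arrays examined for a single distant array, and chance alone marks about 1 in 20.

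Hnrnpu and Eif3c differed between early and late times by a test of that difference, with early minus late values of 0.78 and 0.67. The early set holds 11 arrays and the late set 9.

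The 2 arrays that enter no comparison carried a liver signal. The median of 11 liver markers reached 3.09 in sham replicate 2 and 3.64 in the third replicate of the 16 h group, whereas it was -1.79 to 0.21 on the other 30 arrays.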

How the results depend on the processing

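No called gene changed direction under any setting run, and the causes of the differences below were not tested. Among the values of single genes, 309 kept their side of the threshold under other settings, 34 passed anew and 13 no longer passed; with 1 array omitted the numbers were 487, 22 and 47. Estimated array weights raised the counts of called genes to 1 at 1 h, 2 at 3 h, 3 at 6 h, 1 at 16 h (median -0.077), 7 at 48 h, 7 at 72 h, 8 for the mean of the times, 5 for early against late and 15 for any time. All 32 arrays gave 2 at 16 h (median -0.032), 0 at 24, 48 and 72 h (72 h median 0.12), 0 for the mean and 1 for any time. Without centring, where the median of everything tested moved to -0.15 at 24 h, the counts were 3 at 24 h (median -0.043), 2 at 72 h and 2 for the mean. Quantile normalization gave 2 at 48 h, 2 at 72 h and 2 for the mean, near-floor ratios set missing 2 at 72 h and 2 for the mean, and probes kept apart by accession 2 at 24 h, 2 at 72 h and 2 for the mean.

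A replicate block gave 2 at 24 h, 0 at 48 h, 0 at 72 h, 0 for the mean, 1 for early against late (Hnrnpu) and 0 for any time, where Hnrnpu had an adjusted p of 0.0522. The numbers do not pair the samples: same-numbered arrays had a median correlation of deviations of -0.00487 and others 0.0124.

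With 1 array omitted the counts ranged from 0 to 0 at 1 h, 0 to 4 at 3 h, 0 to 1 at 6 h, 0 to 0 at 16 h, 0 to 1 at 24 h, 0 to 1 at 48 h and 0 to 4 at 72 h. They ranged from 0 to 3 for the mean, 1 to 4 for early against late, 0 to 0 for sham against control and 1 to 7 for any time. The median change ranged from 0.012 to 0.15 at 3 h and from -0.23 to -0.074 at 16 h.

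Small groups are the main limit. At 16 h an omission leaves 1 array, which is assumed to vary like the other groups. Ratios near the floor did not occur among these genes, and signal over background is unknown.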
